A study of Homo sapiens with 4 samples.

Results

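The 10 genes studied here belong to the AP-1 transcription factor group and the immediate-early response. *FOS*, *FOSB*, *FOSL1*, *FOSL2*, *JUN*, *JUNB*, *JUND*, *ATF3*, *EGR1* and *IER2* were followed through single-cell RNA sequencing of A375 melanoma cells. The genes were chosen by name, were matched to their Ensembl identifiers, and are 10 of the 32991 genes that are listed for all libraries. A375 is an established human melanoma line with the *BRAF* mutation V600E, and 4 cultures of it were compared, each sequenced as 1 library. S cells were untreated. RV cells had been made resistant with vemurafenib, a BRAF inhibitor, RVC cells with vemurafenib and cobimetinib, and RVT cells with vemurafenib and trametinib. Cobimetinib and trametinib both inhibit MEK, the kinase below BRAF. The drugs were given for 10 to 14 days below the IC50 and withdrawn 24 h before capture, so that resistance, the preceding treatment and its withdrawal cannot be told apart. All cultures were grown in serum and brought into suspension with TripLE, a trypsin substitute, before capture, in all libraries alike. Each condition is 1 culture of 1 line and no library was repeated, so that the spread between cultures is unknown, no test between conditions was possible, and the intervals below cover counting error only.

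AP-1 is a pair of proteins that grip each other through leucine zippers and bind DNA together. A FOS protein pairs with a JUN protein, whereas JUN proteins also pair among themselves, and the outcome for a target gene depends on which members are present. The ERK kinases, which BRAF and MEK switch on, drive these genes in part through serum response factor and its ELK partners, and they also stabilize several of the proteins. *FOS*, *FOSB*, *EGR1*, *JUNB* and *IER2* are classical immediate-early genes, transcribed within minutes of a stimulus and shut off soon after. *FOSL1* encodes FRA1, a longer-lived member that accumulates under sustained ERK activity and is known in melanoma for its part in invasive, dedifferentiated states. *ATF3* is induced by stress, and *JUND* is transcribed at a steady level in many cells.

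Sequence upstream of the RefSeq start site was used for 9 of the 10 genes, without *FOSL1*. The part of the 250 bases before that start (GRCh38.p14) that lies outside the gene in GENCODE 29 is given here for the 3 genes that were over 2-fold higher in both RVC and RVT than in S, *FOS* (chr14:75278578-75278773, plus strand), *FOSB* (chr19:45467746-45467994, plus strand) and *EGR1* (chr5:138465229-138465478, plus strand), and for *JUNB* (chr19:12791236-12791485, plus strand), which was lower in both. Capitals mark TGACGT on either strand, the shared part of the cyclic AMP response element, and the CArG box, the site of serum response factor.
FOS: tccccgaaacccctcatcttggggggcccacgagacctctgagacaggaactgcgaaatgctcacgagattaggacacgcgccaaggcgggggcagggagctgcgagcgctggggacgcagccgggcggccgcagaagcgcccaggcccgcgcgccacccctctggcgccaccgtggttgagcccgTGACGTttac
FOSB: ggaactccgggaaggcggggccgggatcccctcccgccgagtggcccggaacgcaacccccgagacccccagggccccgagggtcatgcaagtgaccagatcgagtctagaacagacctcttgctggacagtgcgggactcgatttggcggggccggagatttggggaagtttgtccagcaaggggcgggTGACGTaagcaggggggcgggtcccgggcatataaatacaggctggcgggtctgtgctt
EGR1: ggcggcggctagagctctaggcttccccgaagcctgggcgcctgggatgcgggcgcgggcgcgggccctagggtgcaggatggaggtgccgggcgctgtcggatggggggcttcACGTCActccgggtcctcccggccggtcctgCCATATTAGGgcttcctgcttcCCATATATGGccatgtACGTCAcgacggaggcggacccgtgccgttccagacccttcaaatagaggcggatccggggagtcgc
JUNB: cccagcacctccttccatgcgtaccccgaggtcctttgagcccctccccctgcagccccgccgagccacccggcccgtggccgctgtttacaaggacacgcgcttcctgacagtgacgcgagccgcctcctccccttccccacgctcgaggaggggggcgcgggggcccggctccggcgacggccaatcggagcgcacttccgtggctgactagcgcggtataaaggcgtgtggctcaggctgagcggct

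TGACGT lay 64 bases before the start of *FOS*, 60 before that of *FOSB*, and 136 and 67 before that of *EGR1*, counted to the first base of the match. It was also found upstream of *JUND* and *FOSL2*, where that of *JUND* included the full palindrome TGACGTCA, and was not in the windows of *JUNB*, *JUN*, *IER2* and *ATF3*. Among all 35116 RefSeq windows of this length, 7.10% held TGACGT, 1.65% TGACGTCA and 1.16% a CArG box. *EGR1* held 2 CArG boxes, and none of the other 8 genes searched held one within these 250 bases. The AP-1 site TGANTCA, found in 6.57% of all windows, was in none of the windows of these 9 genes. TATAAA on either strand, found in 10.7%, was present upstream of *FOS*, *FOSB*, *JUNB* and 1 of the 2 starts of *ATF3*. For *FOS* the TATAAA lies within the last 54 bases of the window, which GENCODE 29 counts as part of the gene and which are not printed, and the windows of *JUN*, *FOSL2* and 1 start of *ATF3* lie inside the GENCODE gene altogether. A match describes the letters of the window and not binding.

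After filtering, 6334 S, 4177 RV, 7620 RVC and 8443 RVT cells remained, with medians of 8804, 11553, 3955 and 2869 UMIs per cell and 58470570, 52329047, 32882082 and 25406351 UMIs in total. RVC and RVT were thus shallower, and they were also counted with a gene annotation that differs from that of S and RV, so that RV against S and RVT against RVC are the comparisons within an annotation. In every difference of RVC or RVT from S or RV given below, *FOS*, *FOSB*, *EGR1* and *JUNB* included, the parts of the annotation, the depth and the condition cannot be told apart. Any 2 libraries shared 36 to 102 cell barcodes, at most 1.34% of the smaller library. Of 10 melanocyte lineage markers, 7 were detected in S and in RVT, 6 in RV and 4 in RVC, with summed levels from 73.2 to 175 CPM, where CPM is the UMIs of a gene per 1000000 UMIs of its library. *TYR* had no UMI in any library. *SOX10*, a defining transcription factor of the lineage, was at 86.7, 40.2, 0 and 19.4 CPM in S, RV, RVC and RVT. *S100B* was also lower than in S, at 33.2, 7.07, 0 and 0.315. Other markers of this list differed, with *PRAME* at 34.9, 40.8, 57.1 and 68.1 and *MITF* at 9.73, 20.2, 7.94 and 40.7. The markers of the lineage thus did not move together. The fibroblast genes summed to 2.57, 2.24, 167 and 42.9 CPM in the same order, most of it *COL3A1* in RVC (122). *PTPRC* of blood cells was at 0 in all libraries. Since none of these cells would be expected to lack the members altogether, the UMIs that free RNA adds to a droplet could not be measured.

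Within the FOS family, *FOS* and *FOSB* were low in S and RV and far higher in RVC and RVT, whereas *FOSL1* was highest in RV and lowest in RVT. The *FOS* gene (chromosome 14, 75278774-75282230, plus strand, GRCh38 in GENCODE 29) stood at 8.88 CPM (95% Poisson interval 8.13 to 9.67) for S, 8.12 (7.37 to 8.93) for RV, 50.7 (48.3 to 53.2) for RVC and 67.6 (64.4 to 70.9) for RVT. The S and RV intervals overlapped, and both lay far below RVC and RVT. *FOS* was 5.71-fold higher in RVC than in S (95% interval of the fold 5.17 to 6.31) and 7.61-fold higher in RVT (6.90 to 8.42).

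*FOSB* (chromosome 19, 45467995-45475179, plus strand) encodes another partner of the JUN proteins. It had 2.92 CPM (2.50 to 3.40) for S, 3.23 (2.76 to 3.75) for RV, 41.4 (39.2 to 43.6) for RVC and 66.6 (63.5 to 69.9) for RVT. It was the lowest member in S and RV, with 171 and 169 UMIs, and overlapped with *FOS* in RVT. The 14.2-fold (12.1 to 16.7) higher level in RVC and the 22.8-fold (19.5 to 26.8) higher level in RVT, both over S, were the largest of any member, and 0.903% and 0.777% of all genes tested had a higher ratio. *ERCC1*, which overlaps *FOSB* on the opposite strand, went the other way, from 8176 UMIs in S to 1832 in RVC and 1065 in RVT. These are counts not scaled to the library totals, which were also lower in RVC and RVT.

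*FOSL1* (chromosome 11, 65892049-65900573, minus strand) stood at 164 CPM (161 to 167) for S, 342 (337 to 347) for RV, 117 (113 to 121) for RVC and 15.1 (13.6 to 16.7) for RVT. No intervals overlapped, and the order was RV, S, RVC, RVT. The level in RV was 2.08-fold (2.03 to 2.14) that in S, where 2.15% of the tested genes had a higher ratio. RVT was 10.9-fold lower than S (9.83 to 12.1) and 7.77-fold lower than RVC (6.99 to 8.65), and 1.32% of the tested genes had a lower ratio between RVT and RVC.

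*FOSL2* (chromosome 2, 28392448-28417312, plus strand), which encodes FRA2, varied least within this family. It was at 9.47 CPM (8.70 to 10.3) for S, 12.1 (11.2 to 13.1) for RV, 17.8 (16.4 to 19.3) for RVC and 14.2 (12.7 to 15.7) for RVT. RV and RVT overlapped, S was the lowest and RVC the highest, and no ratio passed 2-fold. That S lay below RVT depended on the scaling, with a log2 ratio of RVT to S of 0.58, and of -0.23 after centring on GC content.

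**Figure D1:**
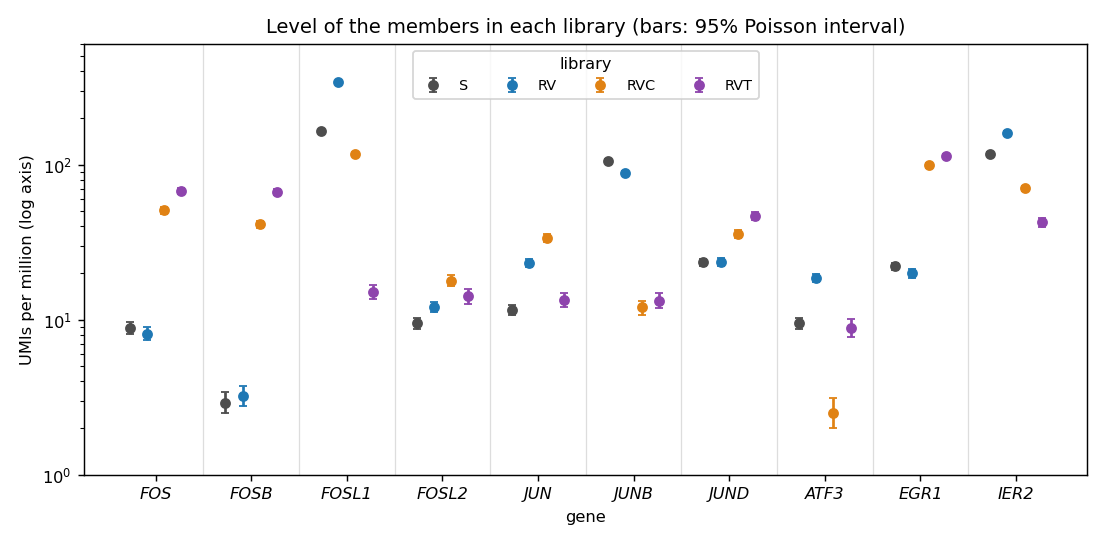
Level of the 10 genes in CPM (vertical log axis) in the S, RV, RVC and RVT libraries, with 95% Poisson intervals as bars. *FOS*, *FOSB* and *EGR1* in RVC and RVT lie above S and RV, *JUNB* in RVC and RVT (12.0 and 13.3) lies below them, and *FOSL1* spans 15.1 in RVT to 342 in RV.

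Summed over the 4 genes, the FOS family reached 185 CPM (182 to 189) for S, 365 (360 to 371) for RV, 227 (222 to 232) for RVC and 163 (159 to 169) for RVT. The sum in RVT lay below that in S, with its interval apart, and its makeup also differed. *FOSL1* gave 88.5% of the family's UMIs (exact binomial interval 87.9 to 89.1) for S and 93.6% (93.2 to 93.9) for RV, but 51.6% (50.4 to 52.7) for RVC and 9.22% (8.36 to 10.1) for RVT. *FOS* and *FOSB* moved in the opposite sense, where *FOS* gave 4.79% in S and 41.3% in RVT (39.8 to 42.9), and *FOSB* 1.58% and 40.8% (39.3 to 42.3). A UMI stands for 1 captured 3′ end and is not scaled by transcript length.

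Within the JUN family, *JUNB* was the leading gene in S and RV and was far lower in RVC and RVT. *JUNB* (chromosome 19, 12791496-12793315, plus strand) had 106 CPM (104 to 109) for S, 88.6 (86.1 to 91.2) for RV, 12.0 (10.8 to 13.2) for RVC and 13.3 (11.9 to 14.8) for RVT. The levels in RVC and RVT overlapped. RV was 1.20-fold (1.15 to 1.25) below S, and its interval was apart. RVC and RVT were 8.89-fold (8.03 to 9.87) and 8.01-fold (7.18 to 8.97) below S, and 3.33% and 3.85% of the tested genes had a lower ratio. *HOOK2*, on the opposite strand of the same place, had 864, 932, 401 and 453 UMIs for S, RV, RVC and RVT. These are counts not scaled to the library totals given above, which were also lower in RVC and RVT.

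*JUN* (chromosome 1, 58780788-58784327, minus strand), the founding partner of FOS, was at 11.5 CPM (10.7 to 12.4) for S, 23.3 (22.0 to 24.6) for RV, 33.5 (31.5 to 35.5) for RVC and 13.4 (12.0 to 14.9) for RVT. It was higher in RV and RVC than in S or RVT, whose intervals overlapped each other. The ratios to S were 2.02 (1.83 to 2.22) in RV and 2.90 (2.63 to 3.20) in RVC. Between RVC and RVT, *JUN* was 2.50-fold (2.21 to 2.83) lower in RVT. The ratio of RVT to RVC was 1.61 for *FOSB* and 1.33 (1.25 to 1.43) for *FOS*, which turned below 1 after centring on GC content.

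*JUND* (chromosome 19, 18279760-18281622, minus strand) was at 23.4 CPM (22.2 to 24.7) for S, 23.6 for RV, 35.9 (33.8 to 38.0) for RVC and 46.6 (43.9 to 49.3) for RVT. S and RV overlapped, and no ratio passed 2-fold, the highest being 1.99 (1.84 to 2.15) in RVT over S, which ran from 0.47 to 1.33 on the log2 scale over the alternative settings. With *JUNB* lower, *JUND* went from 16.6% of the family's UMIs in S to 63.6% (61.4 to 65.8) for RVT. *JUNB* went from 75.2% to 18.1% (16.4 to 19.9), and *JUN* had its highest part, 41.2% (39.3 to 43.1), in RVC. The whole family was lower in the double-resistant cultures, at 141 CPM (138 to 144) for S, 135 (132 to 139) for RV, 81.3 (78.2 to 84.4) for RVC and 73.2 (69.9 to 76.6) for RVT.

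**Figure D2:**
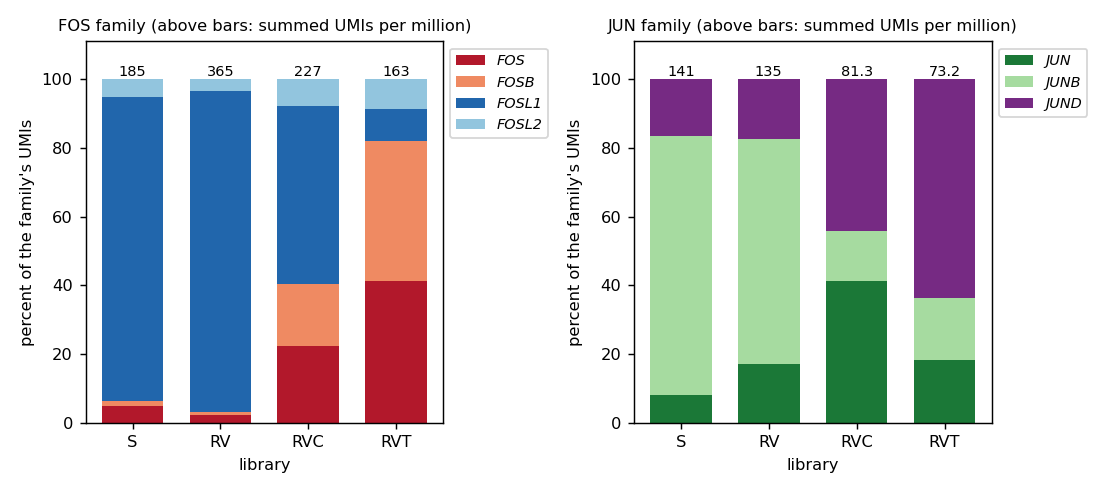
Share of each gene in the UMIs of the FOS family (left) and the JUN family (right), in percent, for the S, RV, RVC and RVT libraries, with the family's summed CPM above each bar. *FOSL1* takes 88.5% of the FOS family in S and 9.22% in RVT, and *JUNB* 75.2% of the JUN family in S and 18.1% in RVT.

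*ATF3* (chromosome 1, 212565334-212620777, plus strand), the stress-induced partner, was at 9.49 CPM (8.72 to 10.3) for S, 18.6 (17.4 to 19.8) for RV, 2.52 (2.01 to 3.13) for RVC and 8.86 (7.74 to 10.1) for RVT. S and RVT overlapped, RV was the highest and RVC the lowest. The 83 UMIs in RVC put it 3.76-fold (2.98 to 4.80) below S, and it was 3.51-fold (2.72 to 4.57) higher in RVT than in RVC.

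*EGR1*, a zinc finger factor and not an AP-1 protein, moved with *FOS* and *FOSB*. The gene (chromosome 5, 138465490-138469315, plus strand) stood at 22.1 CPM (20.9 to 23.3) for S, 19.9 (18.7 to 21.1) for RV, 98.8 (95.4 to 102) for RVC and 114 (110 to 118) for RVT. S and RV overlapped, with a ratio of RV to S of 0.901 (0.830 to 0.978), and RVC and RVT were 4.48-fold (4.19 to 4.78) and 5.17-fold (4.84 to 5.52) above S.

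*IER2* (chromosome 19, 13150415-13154908, plus strand), another immediate-early gene, did not follow *EGR1*. It was at 118 CPM (116 to 121) for S, 161 (158 to 165) for RV, 70.3 (67.4 to 73.2) for RVC and 42.4 (39.9 to 45.0) for RVT. All intervals were apart, with RV the highest and RVT 2.79-fold (2.62 to 2.98) below S. Classical immediate-early members therefore lay on both sides of S in the double-resistant cultures, *FOS*, *FOSB* and *EGR1* above it and *JUNB* and *IER2* below it, under every scaling tried. *JUN* joined neither side in both cultures, at 2.90-fold S in RVC and 1.16-fold (1.02 to 1.32) in RVT, where the sign changed with the scaling.

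The ratios were set beside those of the 10302 genes whose level averaged 3 CPM or more over the libraries, a limit that all 10 members passed. Between RV and S, 2 of the 10 members were over 2-fold higher, *JUN* and *FOSL1*, and 0 were over 2-fold lower, where 2.48% of all genes tested were higher and 2.02% lower. Both lay close to the limit, and the count was 1 with TMM scaling or with centring on the median or on GC content, and 0 without ribosomal and mitochondrial genes in the library size. *ATF3*, at 1.96-fold (1.76 to 2.18), lay just under that limit. Between RVC and S, 4 members were over 2-fold higher (*FOS*, *FOSB*, *JUN* and *EGR1*) and 2 lower (*JUNB* and *ATF3*), against 23.0% and 21.9% of all genes. Between RVT and S, 3 were higher (*FOS*, *FOSB* and *EGR1*) and 3 lower (*JUNB*, *FOSL1* and *IER2*), against 32.5% and 21.8%. Between RVT and RVC, 1 was higher (*ATF3*) and 2 lower (*JUN* and *FOSL1*), against 18.8% and 11.3%. The counts in the comparisons with RVC and RVT are thus close to the background and are not a result about the members, whose single ratios are given above. The comparisons with S share that library.

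The tested genes as a whole did not centre on 0. The median log2 ratio was 0.02 in RV over S, 0.22 in RVC over S, 0.37 in RVT over S and 0.25 in RVT over RVC, and the standard deviation over genes rose from 0.50 in RV over S to 1.70 in RVT over S. Relative to that median, *FOSB* stood at a log2 ratio of 3.61 in RVC and 4.14 in RVT over S, *FOS* at 2.30 and 2.56, *EGR1* at 1.95 and 2.00, *JUNB* at -3.37 in both, and *FOSL1* at -0.70 and -3.81. With TMM scaling, 16.7% of genes were over 2-fold higher and 25.6% lower in RVC over S, 19.3% and 30.1% in RVT over S, and 11.1% and 16.8% in RVT over RVC. Against S, the log2 ratios of all genes also fell with the GC content of the transcript's last 500 bases, with Spearman correlations across genes of -0.34 in RVC and -0.40 in RVT and of 0.01 in RV, given as a description since genes are not replicates. *FOS* is AT-rich there (29.4% GC, with 7.29% of genes lower), whereas *FOSB* (51.0%), *JUNB* (53.2%) and *FOSL1* (52.0%) have more GC than 75.7% to 80.4% of genes. After centring on genes of like GC content, the log2 ratio of *FOS* in RVT over S was 2.06, beside 2.93 before. That of *EGR1* was 1.77 beside 2.37, and that of *FOSB* was 4.49 beside 4.51.

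**Figure D3:**
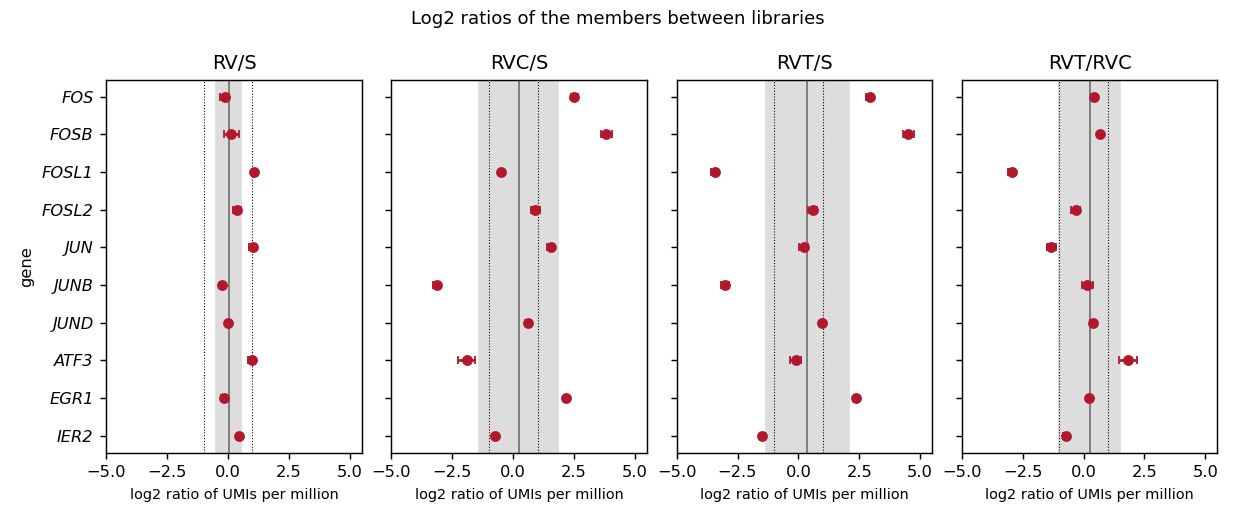
Log2 ratio of CPM for each gene (rows) in RV over S, RVC over S, RVT over S and RVT over RVC (panels), with 95% counting intervals as bars. The grey line and band are the median and 1 standard deviation of the 10302 genes tested, and dotted lines mark 2-fold. *FOSB*, *FOS* and *EGR1* lie right of the band in RVC and RVT over S, and *JUNB* lies left of it.

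Of 11 further genes for bZIP partners, of the BATF, ATF, JDP and MAF groups, 6 were abundant enough to be tested, and *BATF* had no UMI in any library. *ATF7* was at 16.5, 17.3, 28.3 and 40.2 CPM and *ATF2* at 3.69, 3.44, 5.02 and 11.8 in S, RV, RVC and RVT, both over 2-fold higher in RVT than in S, as 32.5% of all genes were. *MAF* was 8.14, 1.03, 15.3 and 1.18, and *MAFK* 8.18, 8.77, 2.92 and 13.1, and the latter was lowest in RVC, as *ATF3* was. *MAFG*, a small MAF protein, was at 18.0, 12.4, 28.6 and 21.3.

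Of 28 other immediate-early genes, 21 were tested. In RVC over S, 6 were over 2-fold higher and 5 lower, close to the 23.0% and 21.9% of all genes. In RVT over S, 11 were higher and 5 lower, against 32.5% and 21.8% of all genes, with a median log2 ratio of 1.31 beside 0.37 for all genes. *SGK1*, a serum-induced kinase, was at 7.68, 4.91, 125 and 79.1 CPM for S, RV, RVC and RVT. *ZFP36*, whose product destabilizes mRNAs with AU-rich elements, was at 2.48, 4.26, 5.17 and 21.1, and *DUSP1*, a phosphatase of MAP kinases, at 2.24, 1.43, 11.5 and 6.97. Opposite to them, *MYC* went from 21.2 and 18.6 to 0.943 and 2.09, *PPP1R15A*, a subunit of the phosphatase of the stress response, from 82.7 and 97.4 to 9.52 and 8.62, and *IER3* from 187 and 164 to 91.8 and 53.6. *GADD45B* was at 7.30, 15.8, 3.31 and 0.630. Like the members, this list held genes far above and genes far below S in the same library.

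Of 15 genes acting above AP-1, which encode kinases, ternary complex factors and the transcription factors SRF and CREB1, all were tested, and 7 were over 2-fold higher and 2 lower in RVT over S, against 32.5% and 21.8% of all genes, with a median log2 ratio of 0.95 beside 0.37. In RVC over S, 5 were higher and 2 lower, against 23.0% and 21.9%, with a median of 0.80 beside 0.22. Counts this near the background are no result about the list. *MAPK3* (ERK1) was at 28.4, 29.8, 11.9 and 6.77 CPM in S, RV, RVC and RVT. The JNK gene *MAPK9* was at 5.40, 4.87, 23.0 and 23.4, and its upstream kinase *MAP2K7* at 27.2, 27.6, 7.88 and 8.54. *MAPK10*, a JNK gene best known from neurons, had 13.7 in RVT and 0.103 to 1.03 elsewhere. *RPS6KA3*, which encodes the ERK-activated kinase RSK2, was at 21.9, 12.5, 38.0 and 48.1, and the ternary complex factor *ELK3* at 17.8, 20.2, 31.0 and 22.0.

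Of 31 genes known as AP-1 targets, 24 were tested. In RVT, 14 were over 2-fold lower and 4 higher than in S, against 21.8% and 32.5% of all genes, and 14 lower and 2 higher than in RVC, against 11.3% and 18.8%, with median log2 ratios of -1.55 and -1.71 beside 0.37 and 0.25 for all genes. In RVC over S, 7 were higher and 7 lower, near the background of 23.0% and 21.9%. In RV over S, 4 were higher and 3 lower, against 2.48% and 2.02% of all genes, with a median log2 ratio of 0.44 beside 0.02. *MMP1*, a collagenase and classical AP-1 target, was at 3.22, 1.30, 1163 and 1.81 CPM in S, RV, RVC and RVT. *MMP3* was at 289 in RVC and under 1 in the other libraries. *HMGA1*, an architectural chromatin protein, was at 1076, 1683, 251 and 24.7. *VIM* was at 2435, 2589, 559 and 330, and *TIMP1* at 960, 451, 1867 and 365.

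The share of cells with a UMI of a gene depends on depth, and was therefore also taken after each cell had been thinned to 1500 UMIs, which left 7217 RVC and 7595 RVT cells and all S and RV cells. Without thinning, *FOSL1* was seen in 59.2% of S cells, 84.9% of RV, 33.5% of RVC and 4.09% of RVT. Thinned, these shares were 19.5% (18.6 to 20.5), 36.3% (34.8 to 37.8), 14.8% (14.0 to 15.6) and 1.96% (1.66 to 2.30), in the same order as the levels. *JUNB* was seen in 52.4%, 56.6%, 4.96% and 3.88% of cells and, thinned, in 14.2% (13.3 to 15.0), 11.8% (10.8 to 12.8), 1.77% (1.48 to 2.11) and 1.96% (1.66 to 2.30).

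For *FOS*, *FOSB* and *EGR1*, the share in RVC and RVT relative to that in S was larger after thinning. *FOS* was seen in 7.09% of S, 7.97% of RV, 16.0% of RVC and 16.3% of RVT cells, and after thinning in 1.28% (1.02 to 1.59), 1.22% (0.910 to 1.60), 6.98% (6.41 to 7.60) and 9.95% (9.29 to 10.6). *FOSB* was in 0.458%, 0.335%, 5.60% and 9.69% of thinned cells, from 2.56%, 3.85%, 12.7% and 16.3% unthinned. *EGR1* was in 3.08%, 2.42%, 13.3% and 14.0% of thinned cells, from 14.1%, 17.9%, 29.3% and 23.3%. *JUND* went from 17.2% of S to 12.8% of RVT cells unthinned, against its level, and from 3.11% (2.70 to 3.57) to 6.52% (5.97 to 7.10) thinned, so that no order was read from the unthinned share. *FOS* and *FOSB* were seen in a minority of RVC and RVT cells. With means of 0.0632 to 0.113 UMIs per thinned cell this follows from level and depth. Cells in which no UMI was caught cannot be told apart from cells without the transcript, so the share of cells that held it is not known.

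**Figure D4:**
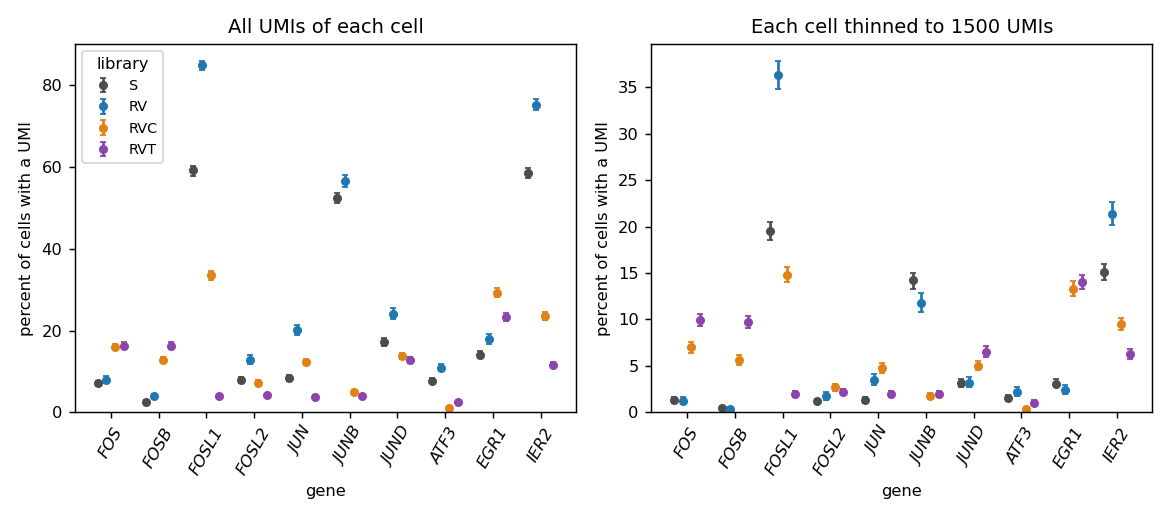
Percent of cells with a UMI of each gene in the S, RV, RVC and RVT libraries, with all UMIs (left) and with each cell thinned to 1500 UMIs (right), and exact 95% binomial intervals as bars. The vertical axes differ. Thinned, *FOSL1* is in 36.3% of RV and 1.96% of RVT cells, and *FOS*, *FOSB* and *EGR1* are higher in RVC and RVT than in S and RV.

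In single cells, most positive cells held 1 UMI after thinning, and 2 or more UMIs were in 19.6% of the *FOSL1*-positive cells of S and 32.1% of those of RV. *FOS* had 2 or more in 1.23% of the 81 positive cells of S, 11.7% of RVC and 11.8% of RVT, a share that rises with the level itself. The variance over the mean of thinned counts, which is 1 for evenly spread transcripts, was highest for *ATF3* in RV (1.52), *EGR1* in RVT (1.41), *JUN* in RV (1.36) and *FOSL1* in RV (1.35). Without thinning, 1 RV cell alone had 37 *ATF3* UMIs. For *FOS* and *FOSB* the value lay from 1.10 to 1.22 in RVC and RVT and near 1 in S and RV. Their means in S and RV were only 0.00335 to 0.0129 UMIs per thinned cell. No thinned cell held more than 1 *FOSB* UMI there, which by itself fixes its value near 1. How evenly these genes were spread is therefore not compared between the libraries. The *EGR1* maximum in a thinned RVT cell was 11 UMIs.

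Counting how many of the 10 genes had a UMI in a thinned cell, at least 1 was seen in 45.5% of S cells (44.3 to 46.8), 59.8% of RV (58.3 to 61.3), 47.7% of RVC (46.6 to 48.9) and 41.8% of RVT (40.7 to 42.9). At least 3 were seen in 2.31% of S (1.95 to 2.71), 4.14% of RV (3.56 to 4.79), 2.72% of RVC (2.35 to 3.12) and 2.29% of RVT (1.97 to 2.65). RV was the highest, and the other 3 libraries overlapped. The summed level of the members was also highest in RV, at 701 CPM beside 477 in S, 480 in RVC and 402 in RVT. The share expected from the levels alone was not computed, so these shares are not read as joint expression. Without thinning, at least 3 were seen in 43.7%, 66.1%, 21.8% and 9.33% of cells, and the maximum was 10 of 10 in RV.

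To see which genes were caught in the same cells, the number of cells with both genes of a pair was divided by the number expected if the 2 were independent among cells of like depth, in 10 bins of total UMIs. Over the member pairs with at least 5 cells expected, the median ratio was 1.11 for S (45 pairs), 1.08 for RV (45), 1.16 for RVC (44) and 1.11 for RVT (45). The counting interval lay above 1 for 17, 13, 18 and 10 pairs and below 1 for 1, 0, 2 and 0. The medians of each member with all genes ranked lay between 0.985 and 1.04, and the share of all gene pairs with an interval above 1 was not computed, so that the counts of pairs are a description.

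*FOS* and *FOSB* were the pair that was found together most in RV and RVC. In RVC, 381 cells held both where 174 were expected, a ratio of 2.19 (1.98 to 2.42), and in RVT 391 where 238 were expected, 1.64 (1.48 to 1.81). In S and RV the ratios were 2.01 (1.29 to 2.99) and 2.44 (1.72 to 3.36), on 24 and 37 cells. *FOS* and *EGR1* had ratios of 1.82 (1.51 to 2.17), 1.40 (1.13 to 1.73), 1.56 (1.44 to 1.69) and 1.59 (1.46 to 1.73) for S, RV, RVC and RVT, and *FOSB* and *EGR1* 2.02, 1.38, 1.48 and 1.37. In RVC, *ATF3* had ratios of 1.81 (1.13 to 2.74) with *FOSB* and 1.80 (1.18 to 2.64) with *FOS*, on 22 and 26 cells. In RV it had 1.45 (1.18 to 1.77) with *FOSL2* and 1.44 (1.09 to 1.87) with *FOS*. These values were higher than those of *FOS* and *EGR1*, but all their intervals overlapped those of that pair. In RVC, the intervals of *FOSB* with *JUNB* (1.21 to 1.87) and with *IER2* (1.36 to 1.66), which were lower there than in S, overlapped that of *FOSB* with *EGR1* (1.35 to 1.62).

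*FOSL1* showed no such excess with *FOS*. Its ratio with *FOS* was 0.909 for S, with an interval that included 1, 0.925 (0.817 to 1.04) for RV, 0.866 (0.783 to 0.954) for RVC and 1.07 (0.827 to 1.35) for RVT, so that the interval lay below 1 in RVC alone. In RVC, *FOSL1* with *JUNB* also had a ratio below 1, 0.839 (0.701 to 0.997). The remaining pair with its interval below 1 was *FOS* with *FOSL2* in S, 0.649 (0.420 to 0.958). With *JUN*, *FOSL1* had 1.17 (1.06 to 1.28) in S. *JUN* and *ATF3* were found together at 1.63 (1.31 to 2.01), 1.41 (1.20 to 1.66), 1.46 (0.865 to 2.31) and 2.42 for S, RV, RVC and RVT, the last on 21 cells.

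**Figure D5:**
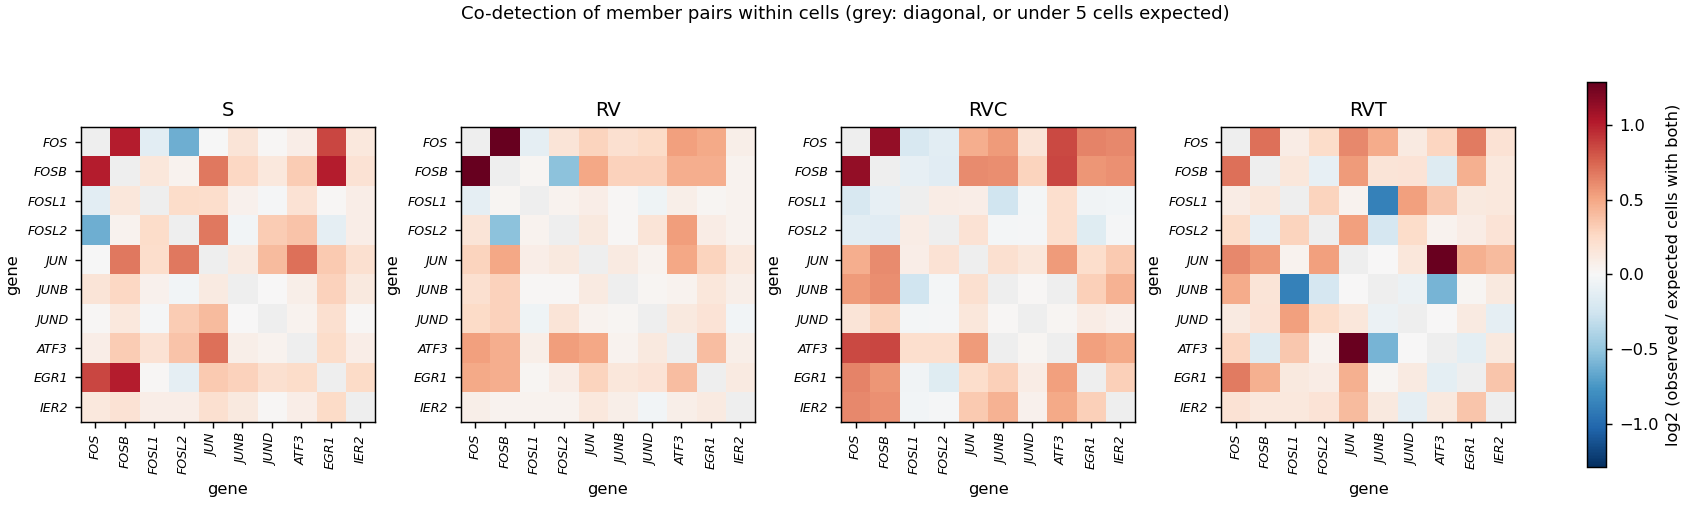
Log2 of observed over expected cells with both genes, for each pair of the 10 genes in the S, RV, RVC and RVT libraries (panels), where red is more and blue fewer than expected among cells of like depth. The block of *FOS*, *FOSB* and *EGR1* is red in all 4 libraries, with a *FOS* and *FOSB* ratio of 2.19 in RVC, and *FOSL1* with *FOS* is pale or blue in S, RV and RVC.

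Beside these pairs, the same ratio was taken for every gene seen in at least 5% of a library's cells. The median ratio with *FOS* over those genes was 1.02, 1.03, 1.00 and 0.985 for S, RV, RVC and RVT, and the highest 2.5% of genes began at 1.32, 1.39, 1.25 and 1.14. The 5 genes with the highest ratio with *FOS* in RVT were *FOSB*, *EGR1*, *KLF6* (1.46), *ZFP36* (1.42) and *NFKBIZ* (1.40), of which *KLF6*, *ZFP36* and *NFKBIZ* are themselves induced early by serum or cytokines. Members in under 5% of RVT cells were not ranked, which were *JUN* (1.53), *JUNB* (1.39), *ATF3* (1.21), *FOSL2* (1.18) and *FOSL1* (1.07). In RVC they were *FOSB*, *HIST1H2BG* (2.00), *HES1* (1.67), the non-coding *LINC01807* (1.63) and *PDGFRA* (1.58). *EGR1*, *IER2* and *JUN* were high there too, at 1.56, 1.53 and 1.38. *JUNB* (1.46) and *ATF3* (1.80, on 26 cells) were in under 5% of RVC cells and were not among the genes ranked there. In S, *EGR1* led and was followed by *ZNF335* (1.76), *CAPRIN2* (1.68), *CHRM3* (1.65) and *GRB10* (1.64), each on at most 44 cells. In RV, the leading genes were *S100B* (2.18), *TMEM8A* (1.94), *INKA2* (1.91), *SECTM1* (1.82) and *ZBED3* (1.76), each on at most 43 cells, and none was a member. *FOSB* was in under 5% of S and RV cells and was not among the genes ranked there.

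The genes most often found with *FOSL1* were others. In S they were *ESM1* (1.30), *CTGF* (1.27), *OSCAR* (1.26), *ANKRD1* (1.25) and *SRGAP1* (1.25), where *CTGF* and *ANKRD1* are well-known targets of YAP and TEAD. In RVC they were *CDH13* (1.27), *IL6* (1.26), *NOP14* (1.23), *SVIL* (1.21) and *COL7A1* (1.21). In RV, where *FOSL1* was seen in 84.9% of cells and no gene can lie far above 1, they were the kinetochore genes *NDC80* and *NUF2* and *SHCBP1*, *LINC01224* and *XRCC2*, all at 1.11, and the intervals of *SHCBP1* and *XRCC2* included 1. The size of the ratios is therefore not compared between libraries. In RVT the first 5 were genes of dividing cells, *NUSAP1* (2.81, 2.23 to 3.50), *TOP2A* (2.47), *PCLAF* (2.41), *CENPF* (2.24) and *AURKA* (2.07).

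Cells with at least 3 of 10 mitotic markers after thinning made up 7.74% of S, 10.2% of RV, 16.4% of RVC and 3.73% of RVT cells that could be thinned. *FOSL1* was higher in them in 3 libraries, at 312 CPM beside 149 in the other cells of S, a ratio of 2.09, at 499 beside 323 in RV, 1.55 (1.49 to 1.61), and at 52.2 beside 13.5 in RVT, 3.87 (2.90 to 5.08). In RVC it was 124 beside 116, 1.06 (0.979 to 1.16). The mitotic cells of RVT were thus below both the mitotic and the other cells of S. *FOS* and *EGR1* went the other way in RVT, where mitotic cells had 31.5 beside 68.6 for *FOS*, 0.459 (0.323 to 0.633), and 68.0 beside 112 for *EGR1*, 0.605 (0.479 to 0.754). *FOSB* and *IER2* were lower there too, at 0.573 (0.419 to 0.765) and 0.691 (0.481 to 0.963). In S and RV, *IER2* was higher in mitotic cells, at 1.35 and 1.41, and so was *JUNB*, at 1.21 and 1.23. The intervals of *JUN*, *ATF3* and *FOSB* also lay above 1 in RV, whereas those of *FOSB* and *JUN* lay below 1 in RVC. *JUND* was lower in mitotic cells of S and RV, at 0.708 (0.565 to 0.877) and 0.780 (0.634 to 0.951), and its intervals included 1 in RVC, at 1.02 (0.869 to 1.19), and in RVT, at 1.25 (0.961 to 1.60). Mitotic cells had more UMIs, with medians of 10410 beside 8688 in S and 4054 beside 3001 in RVT, and the part of depth in these ratios was not tested.

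The members also differed between cells of one library that were split by the share of mitochondrial UMIs or by depth. In RV, cells above the median mitochondrial share (3.52% in their middle, beside 2.69%) had 8.24 *ATF3* CPM and the other cells 28.1, a ratio of 0.293, and *JUN* was at 0.577 (0.511 to 0.650). *EGR1*, *IER2*, *JUNB*, *FOSL1* and *FOSL2* were also lower in those RV cells, with ratios from 0.709 to 0.747. The intervals of *FOS*, *FOSB* and *JUND* included 1 there. In S, *JUN* and *ATF3* were lower in such cells too, at 0.590 and 0.608, whereas *FOS*, *EGR1* and *JUND* were higher. In RVC and RVT the ratios of *FOS* were 1.22 (1.11 to 1.35) and 1.08 (0.978 to 1.18), and of *FOSB* 1.19 (1.07 to 1.33) and 0.999 (0.907 to 1.10). Split by total UMIs, *FOS* was lower in the deeper cells of all 4 libraries, with ratios from 0.774 in RVT to 0.820 in S, whereas *FOSL1* was higher in them, from 1.12 in RV to 1.54 in RVT. In each of these parts of RVC and RVT, *FOS* stayed above its level in S, the lowest being 45.9 in RVC cells of low mitochondrial share.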

How the data were processed

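Single-cell RNA sequencing data of A375 cells comprised 1 library each of S, RV, RVC and RVT. The authors used the 10x Genomics Chromium v2 kit, bcl2fastq 2.20.0.422 and Cell Ranger, and the values they deposited are UMI counts, whole numbers for each gene in each cell and not normalized, on build GRCh38. The annotation is not given in the sources used here. The tables list 703 genes only for S and RV and 547 only for RVC and RVT. Names and positions were taken from GENCODE 29, and upstream sequences from RefSeq. The tables of S and RV hold more barcodes than the study's own cell numbers, and those of RVC and RVT hold as many.

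Of 6695, 4328, 9266 and 10427 barcodes in S, RV, RVC and RVT, those with under 500 genes or over 20% mitochondrial UMIs were left out. Scrublet in scanpy 1.11.5 called only 5, 2, 1 and 1 doublets, so the highest scores were removed at 0.8% per 1000 barcodes instead (359, 150, 687 and 870). UMIs were summed per library and given per 1000000 UMIs (CPM), with exact Poisson intervals. Shares have Clopper-Pearson and folds exact conditional binomial intervals at 95% (scipy 1.17.1). TMM factors came from edgeR 4.0.16 and were 0.875, 0.899, 1.01 and 1.25. Thinning drew 1500 UMIs per cell without replacement (seed 1). A floor of 3 UMIs per library, used for folds against a count of 0, was 0.0513, 0.0573, 0.0912 and 0.118 CPM. The ratios, the thinning and the co-detection were tested on simulated data.

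All members were named. From other lists, the text names up to 3 genes with the highest level and up to 3 with the largest rise and fall, and 5 genes per library with the highest co-detection with *FOS* and *FOSL1* (at least 10 cells expected). Some genes that this rule names are not reported here. The members, the lists, the rules and the alternatives were chosen with earlier results of these data known. Lists of 6 immune and blood and 5 keratinocyte markers were also summed. The immune list was under 1 CPM in all libraries. The keratinocyte list was at 238, 252, 80.0 and 116, nearly all of it *KRT10*. The alternatives were other cell filters, scalings, level minimums, folds, thinning depths and depth bins.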

Additional observations from a re-analysis of the deposited data

How the results depend on the processing

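Each of the 40 member ratios was recomputed under 10 alternatives, and 383 of the 400 values kept the sign. All 17 ratios over 2-fold kept their sign in each alternative, and 14 stayed over 1.00 on the log2 scale in each, taken to 2 decimals. The exceptions were *JUN* in RV over S (0.95 to 1.07), *FOSL1* in RV over S (0.99 without ribosomal and mitochondrial genes in the library size) and *JUN* in RVC over S (1.00 after centring on GC content). The last lay at the limit itself, and the unrounded count of members over 2-fold higher in RVC over S stayed at 4 with that centring. The sign was not stable for *JUN* and *FOSL2* in RVT over S and for *FOS*, *JUNB* and *EGR1* in RVT over RVC, with values of -0.47, -0.23, -0.18, -0.15 and -0.10 at the lowest, or for *JUND* in RV over S (-0.05 to 0.03) and *ATF3* in RVT over S (-0.62 with TMM scaling to 0.05 with at least 1000 genes per cell). The count of 2 members over 2-fold higher in RV over S became 1 with TMM scaling, with centring on the median or on GC content or with a minimum of 50 CPM, and 0 without ribosomal and mitochondrial genes or at 3-fold. A minimum of 10 CPM left 1 member lower in RVC over S and 0 higher in RVT over RVC, since *ATF3* then drops out by construction. A minimum of 50 left 1 higher and 1 lower in RVC over S, 1 higher in RVT over S, and 0 higher and 1 lower in RVT over RVC. At 1.5-fold 2 members were higher in RVT over RVC, and at 3-fold 1 was lower. With equal weight for every cell or with centring on GC content, 4 members were over 2-fold higher in RVT over S, as *JUND* then passed the limit (1.08 and 1.33). With TMM scaling, 3 were lower in RVT over RVC, with *IER2* at -1.03.

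The share of thinned cells with at least 3 members was 0.726%, 2.01%, 1.04% and 0.868% in S, RV, RVC and RVT at 1000 UMIs, 43.7%, 66.1%, 21.8% and 9.33% without thinning, and 12.5%, 19.3%, 13.6% and 11.2% for at least 2 members. RV stayed the highest in each. With at least 1000 genes per cell it was 1.79% in S and 1.57% in RVT, and in RV it was 3.54% with all barcodes and 3.43% at a limit of 10% mitochondrial UMIs. Another random draw gave 2.13%, 3.97%, 2.83% and 2.01%. The median co-detection ratio was 1.24, 1.24, 1.17 and 1.20 in thinned cells without depth bins, and 1.20, 1.16, 1.37 and 1.25 in all cells without depth bins. The cause of these shifts was not tested. Depth limits the rare pairs and genes, such as *FOSB* in S and RV and *ATF3* in RVC. No paired analysis was possible because each condition has 1 library.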

Other observations

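The barcodes left out of RVC and RVT also held UMIs of the members. Barcodes with over 20% mitochondrial UMIs, 478 in RVC and 580 in RVT, had *FOS* at 5.11 and 7.28 CPM on 2 and 3 UMIs, below the 50.7 and 67.6 of the retained cells. *EGR1* was at 30.7 (15.8 to 53.6) and 9.71 (2.65 to 24.9) in them, also below the retained cells. Barcodes with under 500 genes and no more than 20% mitochondrial UMIs numbered 534 in RVT and had *EGR1* at 245 (203 to 293), above the 114 of the retained cells, and *FOS* at 91.3 (66.3 to 123), an interval that included the 67.6 of the retained cells. In the 481 such barcodes of RVC, *EGR1* was at 69.6 and *FOS* had 9 UMIs.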
